A study of Mus musculus with 7 samples.

Results

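Cluster 5 was the smallest of 6 clusters that the authors assigned to cultured neural stem and progenitor cells (NSPCs) of the adult mouse dentate gyrus, the hippocampal region where neurons are still made in adult rodents. Its members were the cells whose name in the single-cell table begins with the number 5, 1092 of 14912 cells (7.32%), and the other 13820 cells were the main reference. Cluster 0, with 3925 cells, was the nearest contrast and was also low in cell-cycle transcripts. Atf5, Eif4ebp1, Asns, Fth1 and Malat1 marked the cluster, and all 5 had their highest level there. The clusters were made from these same genes in 1 library, so every difference between clusters below is a description, without a test.

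The single-cell library mixed equal numbers of cells from 3 primary cultures, 2 female and 1 male, of C57Bl6J mice aged 6 to 9 weeks, between passages 6 and 15. All cultures grew without further treatment on poly-d-lysine and laminin, in neurobasal A with B27 lacking vitamin A, glutaMAX and the growth factors EGF and FGF2, each at 20 ng/ml. The same series holds bulk RNA-seq of 4 such cultures (F1 and F2 from females, M1 and M2 from males, mice aged 6 to 8 weeks) and of whole dentate gyrus from 1 female (F1) and 1 male (M2) C57Bl6J mouse aged 7 to 9 weeks. The deposited cell names do not say which culture a cell came from, so the 3 cultures count as 1 sample, and no cluster can be compared across cultures.

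Cells short of an amino acid, or under other stresses that lead to phosphorylation of the translation factor eIF2, slow most protein synthesis while translating the transcription factor ATF4 more. ATF4 then raises genes for amino acid synthesis, amino acid import and tRNA charging, together with further regulators such as ATF5, CHOP (Ddit3) and the feedback inhibitor TRIB3. A separate pathway led by NRF2 controls glutathione synthesis, ferritin and other antioxidant genes, and the cystine importer Slc7a11 is known to answer to both.

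ATF4 binds, with C/EBP partners, an element that joins part of a site of each, and this element is well known from the promoters of Asns, Trib3, Chac1 and Slc7a11. The letters TGATGNAA, or TTNCATCA on the other strand, were searched in RefSeq promoters of mouse build GRCm38.p6, each running from 250 bases before to 50 bases after the annotated start. They were found in 1304 of 32851 promoters (3.97%) and, counted by gene, in 1219 of 27025 genes (4.51%). Of the genes counted below, 2245 had a promoter in the table and 43 of these held the letters (1.92%). In a list of 20 ATF4 and amino acid response targets, 7 of the 17 matched genes held them (41.2%). That list includes Asns, Trib3 and Chac1, known for this element, so its share was partly set beforehand. The stretches below are shown because these genes had some of the largest ratios in cluster 5 or, for Asns, marked it, and capitals mark the matched letters. Trib3, Chac1 and Nupr1 had the highest ratios among ATF4-list genes with a match and more than 3 UMIs (unique molecular identifiers, each standing for 1 captured transcript) in cluster 5, whereas Asns and Slc7a11 were chosen after their values were seen. The coordinates are RefSeq's, and each sequence is written on its gene's strand.
Trib3, chr2:152344028-152344057, minus strand: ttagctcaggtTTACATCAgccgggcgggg
Chac1, chr2:119351009-119351096, plus strand: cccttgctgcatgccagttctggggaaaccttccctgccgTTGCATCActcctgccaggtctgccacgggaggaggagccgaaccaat
Nupr1, chr7:126625533-126625620, minus strand: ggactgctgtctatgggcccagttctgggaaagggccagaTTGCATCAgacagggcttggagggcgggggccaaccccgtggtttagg
Asns, chr6:7693210-7693272, minus strand: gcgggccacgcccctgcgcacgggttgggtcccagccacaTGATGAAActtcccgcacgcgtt
Slc7a11, chr3:50443614-50443719, minus strand: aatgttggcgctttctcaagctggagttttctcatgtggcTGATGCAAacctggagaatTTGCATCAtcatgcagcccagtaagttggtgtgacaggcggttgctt

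Slc7a11 held the letters on both strands, with matches that began 66 and 47 bases before the start. The match began 23 bases before the start in Asns, 110 before it in Nupr1, 193 before it in Chac1 and at position 15 after it in Trib3. The genes with the highest ratios among those with at least 50 CPM (UMIs per 1000000) over all cells and 100 CPM in the higher set were 12 in number by the naming rule, from Atf5 to Iah1. Of these, 8 had a promoter in the table and only Asns held a match, while Trib3, Chac1, Nupr1 and Slc7a11, with higher ratios, lay under the first of these limits. Of all counted genes that were 1.5-fold or more higher in cluster 5, 3 of 41 with a promoter held one (7.32%), against 2 of 197 that were lower by that fold (1.02%). A match is a run of letters and not a measured binding site.

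Single-cell levels are given as CPM, here UMIs per 1000000 UMIs of all cells of a cluster pooled, with exact 95% Poisson intervals, and ratios with exact conditional binomial intervals. Shares of cells have exact (Clopper-Pearson) 95% intervals, and all of these cover counting error only. Cluster 5 held 4570292 UMIs, with a median of 4086 per cell against 4045 in the other cells and 3749 in cluster 0. Its median share of mitochondrial UMIs was 10.6%, against 10.4% and 11.6%, and 1 of its cells exceeded 20%. No barcode appeared under more than 1 cluster.

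Of 2817 genes with at least 50 CPM over all cells, 52 were 1.5-fold or more higher in cluster 5 than in the other cells (1.85%) and 244 were lower by that fold (8.66%). Against cluster 0 the counts were 47 higher (1.67%) and 129 lower (4.58%). The genes higher against both numbered 34, which is 65.4% of the first list and 72.3% of the second. Of the 52 higher genes, 51 had their highest level of all 6 clusters in cluster 5, and 15 belonged to 4 lists of amino acid genes: ATF4 targets, amino acid transporters, cytosolic aminoacyl-tRNA synthetases, and enzymes of serine, one-carbon and proline synthesis. The median ratio of all 2817 genes was 0.933 to the other cells and 0.962 to cluster 0. The ratios nearest the threshold were those of Prnp (1.502) and Grina (1.540) inside it and Gars and Taldo1 (both 1.499) outside it.

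**Figure D1:**
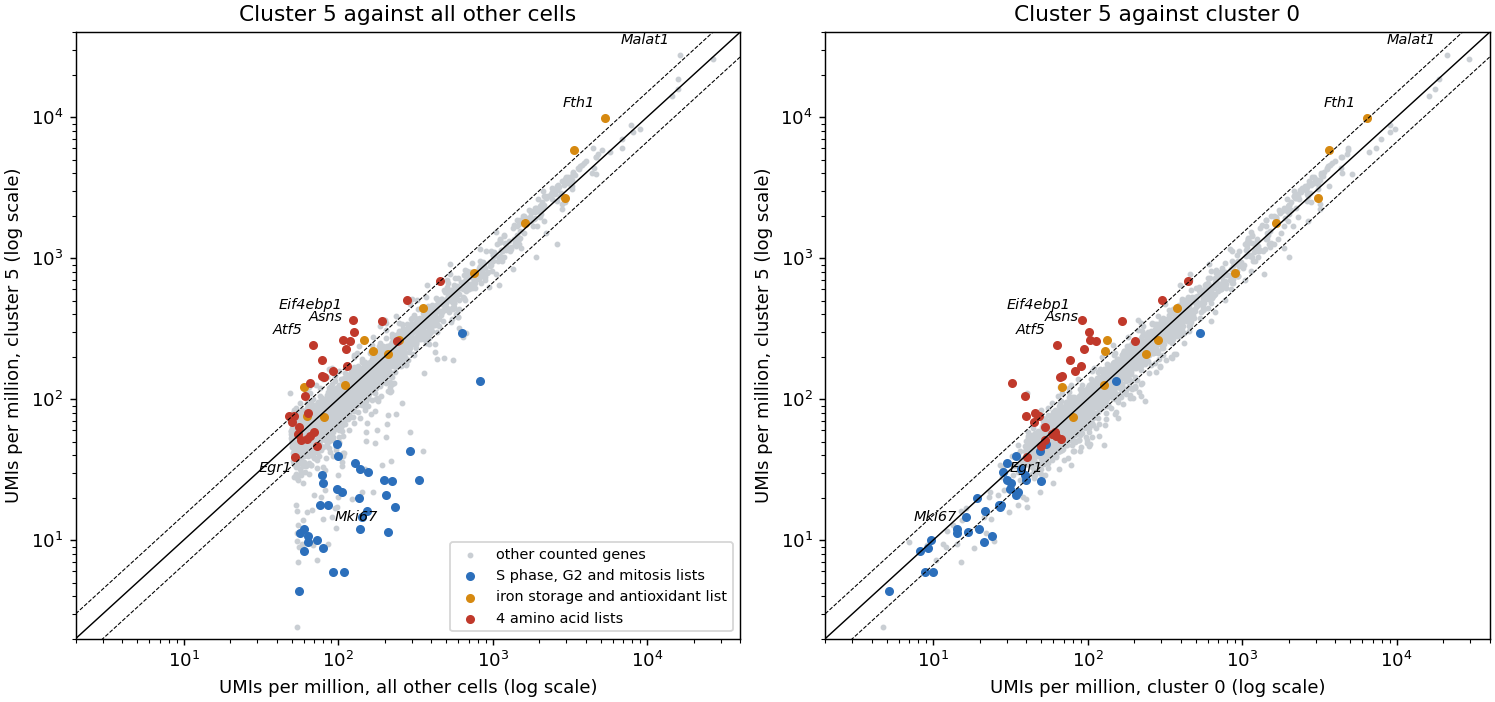
Level in cluster 5 against the level in all other cells (left) and in cluster 0 (right), both in CPM on log scales, 1 point per gene for the 2817 genes counted; the solid line marks equal levels and the dashed lines 1.5-fold. Genes of the 4 amino acid lists (red) lie above the diagonal in both panels more often than below it. Cell-cycle genes (blue) lie far below it on the left and nearer it, but mostly below, on the right.

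Of the transcription factors of the ATF4 response, Atf5, Atf4, Ddit3 and Cebpb were 1.5-fold or more higher in cluster 5 and Cebpg was not (ratio 1.45). Atf5, a transcription factor made under the same translational control as ATF4, stood at 242 CPM (228 to 256) in cluster 5, and between 57.1 and 76.5 in the other 5 clusters. Its ratio to the other cells was 3.51 (3.28 to 3.75) and to cluster 0 it was 3.84 (3.52 to 4.20). Cluster 5 therefore lay outside the range of the others, which did not spread beyond 1.5-fold among themselves. Atf4 itself stood at 146 CPM (135 to 157) against 78.7 in the other cells, a ratio of 1.85 (1.70 to 2.01), although its activity is mainly set by translation, which transcript counts do not show. Ddit3, which encodes CHOP, was at 26.3 against 7.07, and Cebpb, a partner of ATF4, at 51.2 against 24.8.

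Trib3, the pseudokinase that feeds back on ATF4, had 102 UMIs in the 1092 cells of cluster 5 and 55 in the 13820 other cells. That is 22.3 CPM (18.2 to 27.1) against 0.951, a ratio of 23.5 (16.7 to 33.2). Chac1, which degrades glutathione, had 41 UMIs in cluster 5 and 43 in all other cells, a ratio of 12.1 (7.67 to 18.96). Nupr1, a small stress-induced nuclear protein, stood at 77.7 CPM (69.8 to 86.2) against 10.5, a ratio of 7.37 (6.44 to 8.41). These low-level genes fell under the minimum of 50 CPM over all cells and are outside the count of 52: a minimum over all cells leaves out genes that are high in a small cluster only. With a minimum of 10, 145 of 7620 genes were higher in cluster 5 (1.90%).

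Not every gene of the response was higher. All 20 members of the ATF4 list had a UMI in cluster 5, and 6 passed the minimum of 50, of which 5 were 1.5-fold or more higher than in the other cells and none was lower by that fold, with a median ratio of 2.10. Gpt2, an alanine aminotransferase, was the sixth, at 51.9 against 62.6 CPM, a ratio of 0.828 (0.723 to 0.945). Sesn2 (ratio 1.11), Ddit4 (1.37) and Stc2 (1.35), below that minimum, also stayed under 1.5-fold, as did Cebpg. Vldlr (1.73) and Atf3 (2.403, on 15 UMIs in cluster 5) were past it, and Fgf21 had 2 UMIs in cluster 5 and 3 in all other cells, too few for a ratio. Gdf15, a secreted stress factor, was at 105 CPM in cluster 5 but at 109.9 in cluster 2, and it was the only one of the 52 higher genes that was not at its highest in cluster 5. None of the kinases and regulators of eIF2 that passed the minimum moved by 1.5-fold, but this was a single gene, Eif2s1 (ratio 0.885), of a list of 12. With a minimum of 10 CPM, 9 of the list were counted and none was past the fold, with a median of 0.898.

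**Figure D2:**
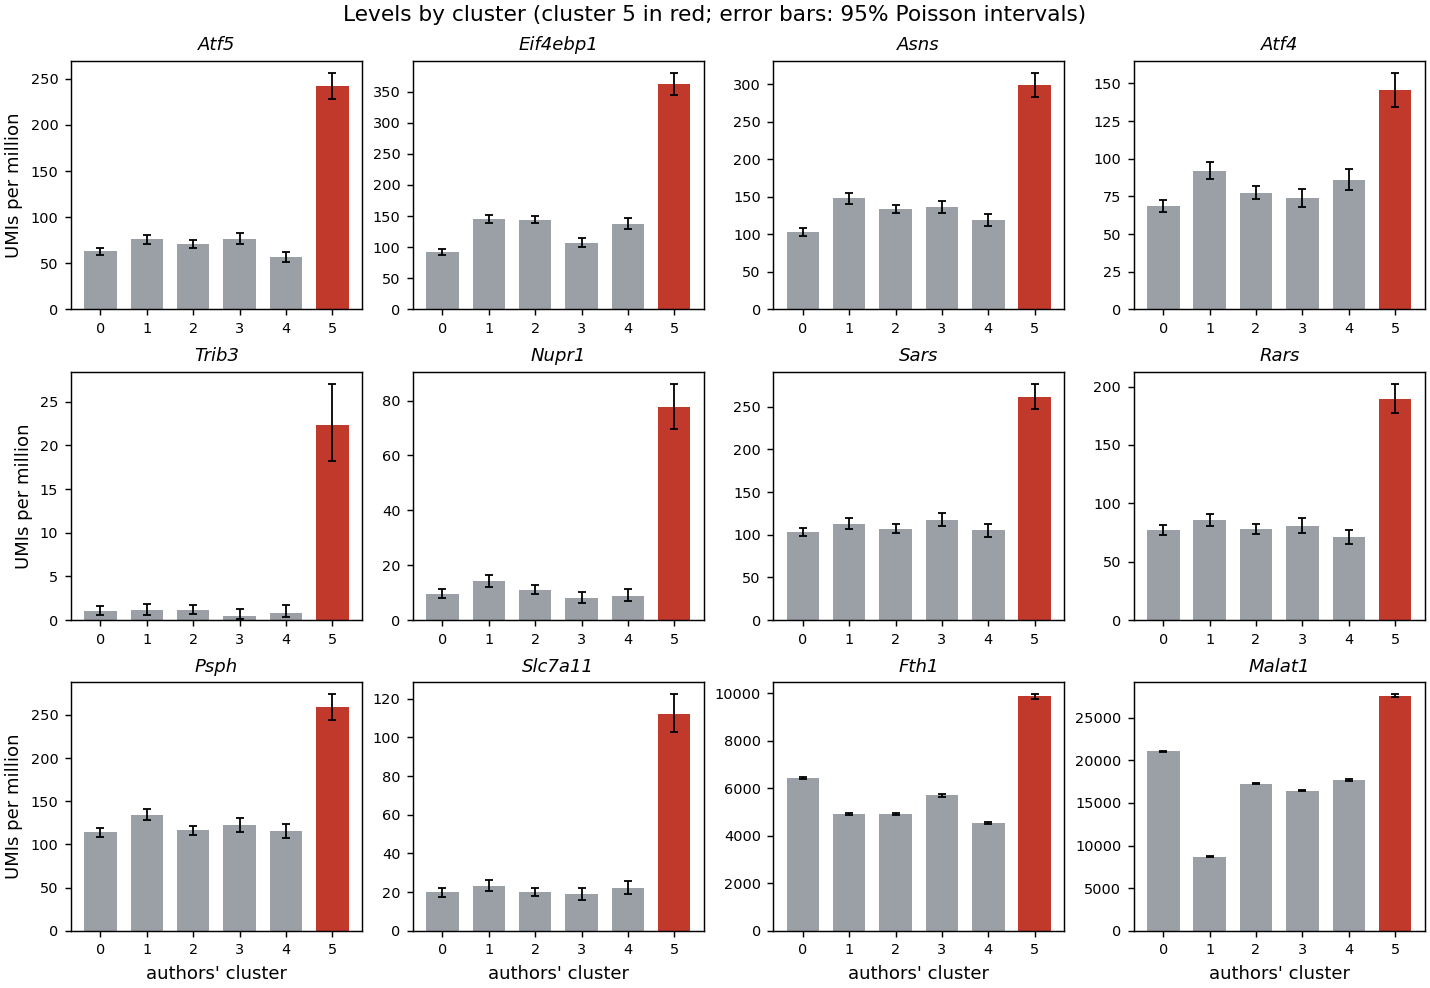
Level of 12 genes in each of the 6 clusters, in CPM, with cluster 5 in red; error bars are exact 95% Poisson intervals and each axis starts at 0. Cluster 5 was highest for all 12, from 22.3 CPM for Trib3 to 27603 for Malat1.

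Eif4ebp1, which encodes the translation repressor 4E-BP1, stood at 362 CPM (345 to 380.0) in cluster 5, between 107 and 145 in clusters 1 to 4, and at 91.5 in cluster 0. The ratio was thus 2.91 (2.75 to 3.07) to the other cells and 3.96 (3.68 to 4.25) to cluster 0. Asns, which makes asparagine from aspartate and glutamine, was at 299 (283 to 315) in cluster 5, and at 103 to 148 in the other clusters. Both genes were therefore lowest in cluster 0, the other low-cycling cluster. Cth, which makes cysteine by transsulfuration, was at 45.7 against 6.81 in the other cells, a ratio of 6.71 (5.65 to 7.96). Aldh1l2, a mitochondrial folate enzyme, was 2.53-fold higher (2.11 to 3.01).

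The tRNA synthetases divided. Of 21 cytosolic synthetases 13 passed the minimum, 6 were higher against the other cells and 1 was lower, with a median ratio of 1.499. Against cluster 0, 9 were higher and none lower, with a median of 1.88. Sars, which charges serine tRNA, was at 262 CPM (247 to 277) in cluster 5 and 108 in the other cells. Rars, for arginine, was at 189 against 78.7, and Nars, for asparagine, at 226 against 112. Eprs, which charges both glutamate and proline tRNAs, was at 359.7 against 192, and Lars and Tars, for leucine and threonine, had ratios of 1.79 and 1.57. On the other side, Vars, for valine, was at 46.2 against 72.9, a ratio of 0.633 (0.549 to 0.727), and Kars, for lysine, had a ratio of 0.741 (0.633 to 0.862). Against cluster 0 alone, Vars and Kars had ratios of 0.929 and 0.951.

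Of 13 amino acid transporters 3 passed the minimum, and 2 were higher in cluster 5. Slc3a2, the heavy chain shared by several exchangers, was at 507 CPM (487 to 528) against 279 in the other cells. Its partner for leucine and other large neutral amino acids, Slc7a5, was at 158 against 92.8. Slc38a2, which carries small neutral amino acids such as glutamine, was at 63.7 against 55.5, a ratio of 1.15. Slc7a11, the partner of Slc3a2 that imports cystine in exchange for glutamate, was named after its values were seen. It stood at 112 CPM (103 to 122) in cluster 5 and between 18.8 and 23.1 in the others, a ratio of 5.42 (4.88 to 6.02), so the other 5 clusters were alike and cluster 5 stood alone. Its promoter stretch, printed above, was the one with 2 matches.

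Among 13 enzymes of serine, one-carbon and proline synthesis, 7 passed the minimum, 2 were higher than in the other cells and 4 higher than in cluster 0. Psph, the last step of serine synthesis, was at 259 CPM (244 to 274) against 120.1 in the other cells and 114 in cluster 0. Phgdh, the first step, had a ratio of 1.498 (1.44 to 1.55) that fell just short of the threshold against the other cells, at 685 against 457. Psat1, the step between them, was at 258 against 241, a ratio of 1.07 (1.01 to 1.14). The 3 steps of this pathway therefore did not share 1 ratio. Mthfd2, a mitochondrial folate enzyme, was at 131 CPM in cluster 5, 32.3 in cluster 0 and 112 in cluster 2, so that its ratio to cluster 0 (4.05, 3.59 to 4.58) came with a level close to that of cluster 2.

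Some iron and antioxidant genes were also higher. Of 18 listed genes 14 passed the minimum, 4 were higher in cluster 5 than in the other cells and 6 higher than in cluster 0, with medians of 1.16 and 1.12. Ratios above 1 were found for 11 of the 14 against the other cells and 8 against cluster 0, and the lowest were 0.906 and 0.863. The ferritin heavy chain Fth1 was at 9865 CPM (9774 to 9956), against 4526 to 6442 in the other clusters. The light chain Ftl1 was at 5860.2 against 3361 in the other cells. Hmox1, the haem oxygenase that frees iron, was at 121 against 59.9, a ratio of 2.03 (1.85 to 2.22). Gclm, the regulatory subunit of glutathione synthesis, had a ratio of 1.803 (1.70 to 1.92), and Srxn1, which repairs oxidised peroxiredoxins and lay under the minimum, one of 3.98 (3.58 to 4.41). Srxn1 and Gclm were named after their values were seen.

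Malat1, an abundant nuclear noncoding RNA, was at 27603 CPM in cluster 5, 21075 in cluster 0 and 8666 in cluster 1. Its ratio was 1.68 to the other cells and 1.31 to cluster 0, so that as a marker it separated cluster 5 least from its nearest contrast. The 3 remaining genes of the 12 named for their ratios, at the limits given above, were Phf10, a chromatin remodelling subunit, at 2.29, Mxra8, a membrane protein, at 1.90, and Iah1 at 1.88.

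At the minimum of 50 CPM, genes of other stress programmes stayed within the fold. Of 18 genes of endoplasmic reticulum stress and its chaperones 9 passed the minimum and none was past 1.5-fold in either direction, with a median ratio of 0.929. Calr, a calcium-binding chaperone, was at 734 CPM in cluster 5 and 726 in the other cells, and Hspa5, the main chaperone of this compartment, at 412 against 382. None of 6 heat shock genes (median 0.988) and none of 9 p53 targets (median 0.938) was past the fold. Cdkn1a, the p21 inhibitor, was at 653 against 669. With a minimum of 10 CPM some genes of these lists were past the fold, and they are named here because of their values. Among 13 counted p53 targets, Gadd45a, a DNA damage and growth arrest gene, had a ratio of 3.15 (2.58 to 3.83) and Bbc3, which encodes the cell death protein PUMA, one of 1.68 (1.39 to 2.01), whereas Btg2 (0.577) and Eda2r (0.580) were lower. Among 15 counted endoplasmic reticulum stress genes, Edem1 was lower, at 0.641 (0.454 to 0.881). All 79 cytosolic ribosomal protein genes passed the minimum with a median ratio of 1.18 and none past the fold. The median of the 13 mitochondrially encoded genes was 0.987.

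**Figure D3:**
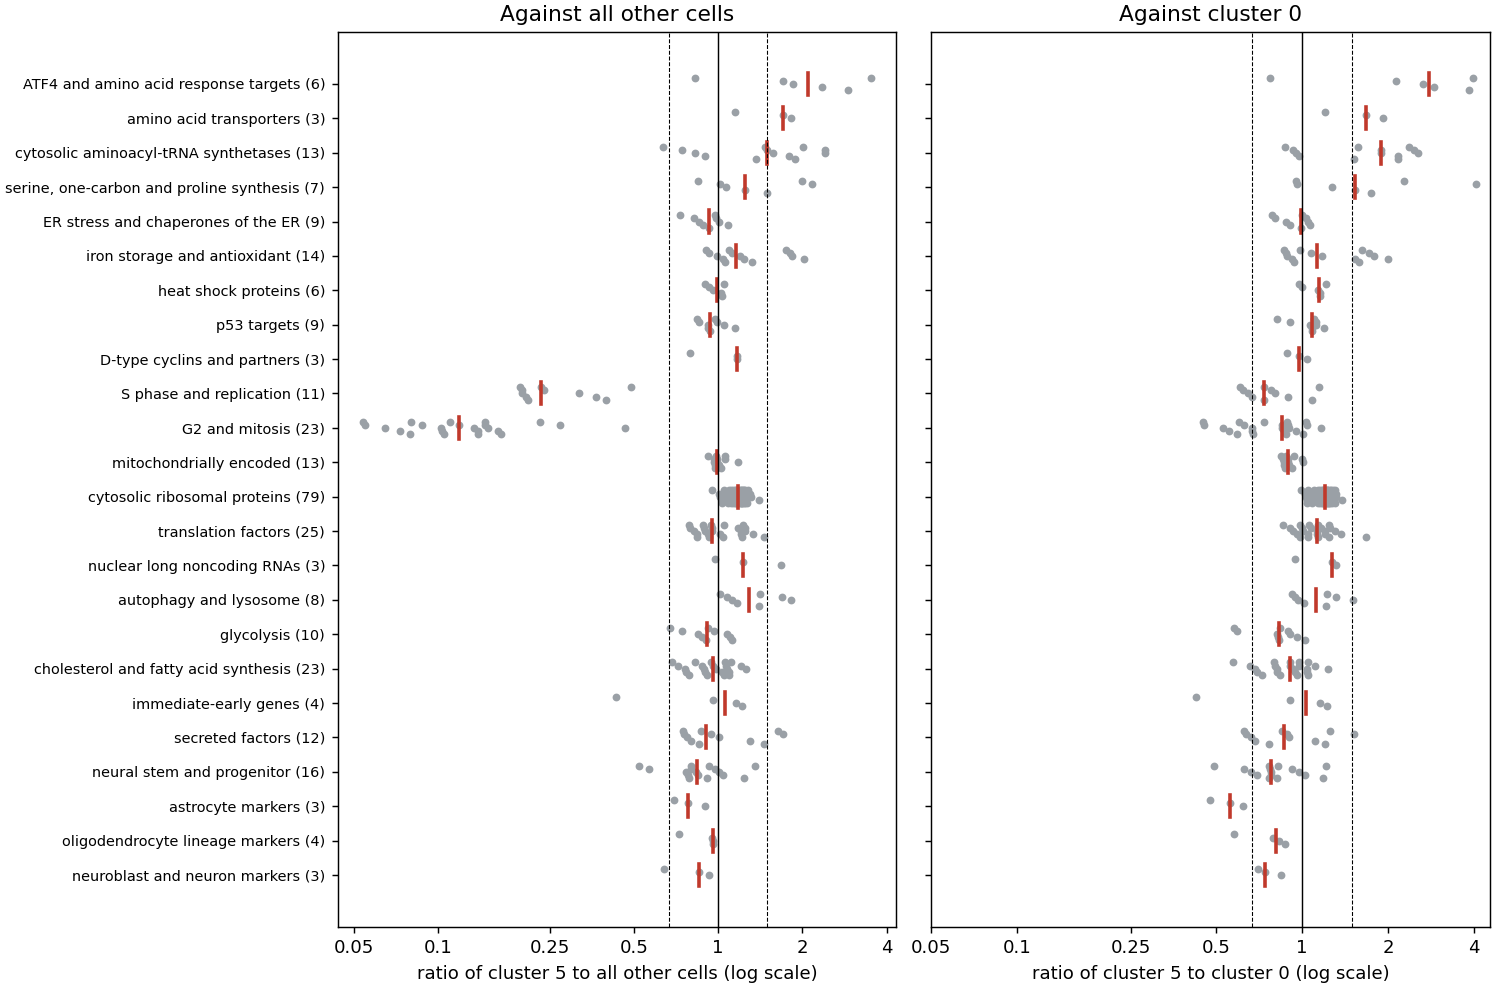
Ratio of cluster 5 to all other cells (left) and to cluster 0 (right) on a log scale, 1 grey point per counted gene, grouped by list with the number of counted genes in parentheses; red lines are list medians, the solid line marks a ratio of 1 and the dashed lines 1.5-fold. The ATF4 list had the highest median in both panels (2.10 and 2.78). The cell-cycle lists lay far to the left against all other cells, and nearer 1, with medians under it, against cluster 0.

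The genes lowest in cluster 5 were cell-cycle genes. Mki67, which marks cycling cells, was at 11.4 CPM (8.50 to 14.9) in cluster 5 and 211 in the other cells, but at 16.9 in cluster 0. Top2a, a topoisomerase of S phase and mitosis, was at 26.5 against 332 and 39.6. Hmmr, Cenpf, Prc1, Birc5, Tpx2 and Ccnb1, which act in the spindle, the kinetochore or mitotic entry, had ratios between 0.0545 and 0.105 to the other cells. All 11 counted S phase genes and all 23 counted genes of G2 and mitosis were lower than in the other cells, with medians of 0.233 and 0.118, and 34 of the 244 lower genes came from these lists. Against cluster 0, 4 and 8 of them were lower, with medians of 0.737 and 0.846, where 4.58% of all counted genes were lower. For both lists the median was thus nearer 1 against cluster 0 than against all other cells. Cluster 5 was still lower than cluster 0 in both summed lists, with ratios of 0.784 (0.743 to 0.826) for S phase and 0.687 (0.664 to 0.712) for G2 and mitosis.

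Against cluster 0 the lowest named genes were of another kind. The rule asked for at least 100 CPM in cluster 5 or cluster 0, so cell-cycle genes under that limit could not be named. Among the counted genes of G2 and mitosis the lowest ratio to cluster 0 was 0.449. Slc22a17, a transporter-like receptor for lipocalin 2, was at 47.5 CPM in cluster 5 and 128 in cluster 0, a ratio of 0.371 (0.321 to 0.427). Slc4a4, a bicarbonate cotransporter of astrocytes, had a ratio of 0.411, Pcp4l1 one of 0.457, the potassium channel subunit Kcnmb4 one of 0.459, and the proteoglycan Ncan one of 0.464. The 3 counted astrocyte markers were all lower than in cluster 0, with a median of 0.559, among them Apoe, the lipid carrier, at 106 against 223. Against the other cells as a whole none of the 3 was past the fold, with a median of 0.781 and ratios from 0.692 to 0.894, the highest being that of Apoe. The summed level of the astrocyte list was 416 CPM in cluster 5 and 586 in the other cells, a ratio of 0.709 (0.677 to 0.743). By cluster this sum was 843 in cluster 0 and 470 to 543 in clusters 1 to 4, so cluster 0 stood above all others. Apoe was at 77.0 to 90.9 in clusters 1 to 4, below its level in cluster 5. Aldoc was at 154 in cluster 5, 276 in cluster 0 and 137 to 216 in clusters 1 to 4. With a minimum of 10 CPM, 5 of 9 astrocyte markers were lower than in the other cells by the fold and none was higher, with a median of 0.623. The 16 counted neural stem and progenitor genes had a median of 0.840 to the other cells, none was higher by the fold and 2 were lower, and Fabp7, a fatty acid binding protein of radial glia, remained abundant at 3956 CPM against 4664.

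No counted marker of another cell type was higher in cluster 5 by the fold. None of the 8 microglial, vascular, ependymal and blood markers found in the table passed the minimum, 2 of them had no UMI in cluster 5, and their summed level was 20.6 CPM there and 18.4 to 22.5 in the other clusters. Their most abundant members, Foxj1 and Acta2, were at 12.3 and 6.56 CPM in cluster 5 and at 14.5 and 3.47 in the other cells. Of the oligodendrocyte lineage, Olig1 and Olig2 had ratios of 0.962 and 0.959, and of the neuroblast genes Sox4 had 0.925. Sox11, another neuroblast gene, was lower than in the other cells by the fold, at 175 against 273 CPM, a ratio of 0.641 (0.597 to 0.688). Listed markers that were not in the table, such as Csf1r, Cldn5, Dcx and Mbp, were not analysed here.

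To compare single cells at 1 depth, every cell was thinned at random to 2000 UMIs, which left out no cell. The summed UMIs of the 67 genes of the 4 amino acid lists had a median of 12 per cell in cluster 5 (5th to 95th percentile 5 to 23), 7 in the other cells and 6 in cluster 0. The sum includes the markers Atf5, Asns and Eif4ebp1. A cut-off was set at the median of cluster 5, so the share of cluster 5 itself was largely fixed in advance. At or above 12 stood 594 of 1092 cells of cluster 5 (54.4%, 51.4 to 57.4) and 1575 of 13820 other cells (11.4%, 10.9 to 11.9). The sum therefore shifted across the cluster but overlapped, and in absolute number more cells at or above 12 lay outside cluster 5 than inside it. Of the other clusters, cluster 2 had the highest share (15.6%) and cluster 0 the lowest (6.27%). The ferritin pair had a median of 28 UMIs in cluster 5, 16 in the other cells and 18 in cluster 0. The other antioxidant genes, 14 without ferritin and the metallothioneins Mt1 and Mt2, had a summed median of 12 UMIs in all 3 sets of cells, with 52.3% of cluster 5 (49.3 to 55.3) and 51.7% of the other cells (50.9 to 52.6) at or above 12. Across the 1092 cells of cluster 5 the amino acid and ferritin sums were weakly and negatively related (Spearman rho of -0.21 and Pearson r of -0.17, a description of sums that share each cell's fixed total).

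**Figure D4:**
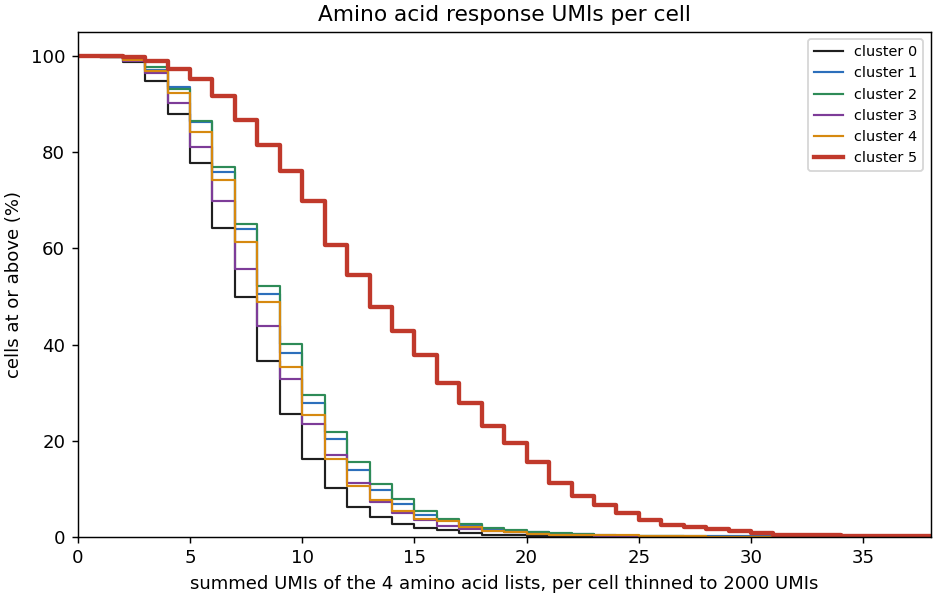
Share of cells (percent) whose summed UMIs of the 4 amino acid lists reached at least the number on the x axis, by cluster, after thinning every cell to 2000 UMIs. At 12 UMIs, the median of cluster 5, its curve is at 54.4% and those of the other clusters lie between 6.27% and 15.6%.

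Single genes were sparse at this depth. A thinned cell had a UMI of Atf5 in 39.7% of cluster 5 and 12.4% of the other cells, of Asns in 43.0% and 21.5%, and of Trib3 in 4.67% and 0.152%. No cell type known to lack these genes was labelled in the library, so the share that free RNA gives was not measured. Within cluster 5, Asns was seen in 200 of the 434 cells with a UMI of Atf5 (46.1%, 41.3 to 50.9) and in 270 of the 658 without one (41.0%, 37.2 to 44.9), so the intervals overlapped. Eif4ebp1 was seen in 261 of the 470 cells with a UMI of Asns (55.5%, 50.9 to 60.1) and in 271 of the 622 without one (43.6%, 39.6 to 47.6), and these intervals did not overlap. The intervals of the 5 other pairs of genes compared in this way overlapped. Such overlap is not a test, does not show equal shares, and takes no account of the 3 cultures in the mixture. An S phase UMI was found in 49.2% of thinned cells of cluster 5, 57.8% of cluster 0 and 81.6% of all other cells (without thinning 72.2%, 77.6% and 91.8%). The median of the 18 endoplasmic reticulum stress genes was 6 UMIs in all 3 sets of cells.

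Transcripts linked to sex differed between the clusters. Xist, which silences an X chromosome in female cells, was seen in 60.6% of thinned cells of cluster 5 (57.7 to 63.5), 46.1% of the other cells (45.3 to 46.9) and 48.1% of cluster 0. The Y-linked genes were seen in 5.68% (4.38 to 7.22), 9.21% (8.73 to 9.71) and 8.66%. Without thinning the shares were 75.5%, 57.004% and 59.8% for Xist and 10.1%, 16.4% and 14.6% for the Y-linked genes. The lean was not particular to cluster 5. Thinned cells of cluster 3 had Xist in 54.7% (52.4 to 56.9) and Y-linked genes in 6.54% (5.48 to 7.75). Only the second of these intervals overlapped that of cluster 5. Cluster 1 leaned the other way, at 36.3% for Xist and 11.04% for the Y-linked genes. Clusters 2 and 4 had 49.8% and 43.6% for Xist and 9.11% and 10.3% for the Y-linked genes. The mixture held 2 female cultures and 1 male culture, so a different make-up by culture and a difference between cells of 1 culture cannot be told apart, and the part of either in the values above was not tested.

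The 4 bulk cultures are separate samples and took no part in the clustering, so they show how far the genes of cluster 5 varied between cultures and from whole dentate gyrus. Culture libraries were made with SMART-Seq HT and tissue libraries with NEBNext Ultra II Directional, so the effects of kit and of group cannot be told apart. In tissue RNA, fewer cells of a type and less RNA per cell cannot be told apart either. Of 18088 genes tested with edgeR, 6440 were higher in the cultures (35.6%) and 7536 lower (41.7%) at an adjusted p under 0.05. The genes counted in the single cells had to reach 50 CPM in cultured NSPCs, so they were chosen through the group in which they are then high. Of these 2817 genes 2785 were tested, 1828 rose (65.6%) and 564 fell (20.3%), with a median log2 difference of 0.96 against -0.13 for all 18088. Of the 52 genes higher in cluster 5, 51 were tested, 35 rose in the cultures (68.6%) and 8 fell (15.7%), which is near the shares of the counted genes, with a median of 1.75. Of the genes lower in cluster 5, 188 of 242 rose (77.7%) and 35 fell (14.5%), with a median of 1.90, and neither set was tested against the counted genes or the other set.

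By group, 17 of 20 tested synthetases rose and none fell, 11 of 13 serine and one-carbon genes rose and 1 fell, and 6 of 13 transporters rose and 1 fell. In the ATF4 list 9 of 19 rose and 5 fell, with a median log2 difference of 0.27. The shares that rose in these 4 lists were 85%, 84.6%, 46.2% and 47.4%, in this order. For comparison, 65.6% of the genes counted in the single cells rose, and 35.6% of all tested genes. The lists also hold genes under the single-cell minimum, and no list was tested against either share. Asns had 353, 152, 395 and 305 CPM (here counts per 1000000, on TMM library sizes) in cultures F1, F2, M1 and M2, and 87.4 and 84.0 in the tissue of F1 and M2. The groups did not overlap, and cultures were higher by 1.81 on a log2 scale, with an SE of 0.36 and an edgeR adjusted p = 0.00172. Eif4ebp1 had 93.9, 60.7, 76.1 and 101.5 CPM in the cultures and 2.00 and 1.46 in tissue (log2 difference 5.58, SE 0.32, edgeR adjusted p = 1.5e-06). Culture F2 was the lowest of the 4 for both.

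Atf5, the gene with the highest ratio to the other cells among the 2817 counted, was lower in the bulk cultures than in tissue. It had 3.47, 3.81, 4.97 and 6.05 CPM in the cultures and 32.1 and 28.8 in tissue (log2 difference -2.74, SE 0.24, edgeR adjusted p = 1.75e-05). Atf5 overlaps Nup62 and Il4i1 on the other strand in GENCODE M21, and the strand setting of the authors' counting is not known here, so reads of these genes may not be told apart in the bulk table. Cebpb, a gene with UMIs in all 6 single-cell clusters, had 0, 0, 0.0955 and 0.195 CPM in the cultures and 28.3 and 34.7 in tissue. Cebpb overlaps Tmem189 on the other strand, so the same limit holds for its bulk values. Atf4 did not differ beyond the spread (log2 difference -0.18, SE 0.19, edgeR adjusted p = 0.403).

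Trib3, Nupr1 and Chac1, which were low outside cluster 5, also spread widely between the bulk cultures, and Cth, likewise low there, spread less. Trib3 had 7.44, 1.21, 3.06 and 16.97 CPM in cultures F1, F2, M1 and M2, against 0.258 and 0.365 in tissue (log2 difference 4.47, SE 1.18, edgeR adjusted p = 0.00817). Nupr1 had 3.88, 2.95, 7.93 and 20.7 CPM against 2.65 and 1.22 (log2 difference 2.19, SE 0.85, edgeR adjusted p = 0.0425). Chac1 had 4.63, 0.694, 2.20 and 7.02 CPM against 2.71 and 3.28, with tissue inside the range of the cultures. Cth had 12.1, 8.50, 10.9 and 18.8 CPM against 4.91 and 4.20 (log2 difference 1.46, SE 0.35, edgeR adjusted p = 0.00497). Culture M2 was the highest and F2 the lowest for all 4 genes. With edgeR, the call of Nupr1 was lost without culture M1 (adjusted p = 0.0663), culture M2 (0.0574), the F1 tissue (0.0843) or the M2 tissue (0.218), with no filter on low counts (0.156) or with DESeq2 size factors (0.0501), that of Trib3 without the F1 (0.0615) or the M2 tissue (0.0521) or with no filter (0.0600), and that of Cth without the M2 tissue (0.0507).

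Slc7a11 had another order, with 27.0, 66.5, 16.3 and 43.4 CPM in cultures F1, F2, M1 and M2 and 31.7 and 35.8 in tissue, so that culture F2 was the highest and the groups overlapped (log2 difference 0.18, SE 0.47, edgeR adjusted p = 0.734). Fth1 had 1831, 2443, 2601 and 2621 CPM in the cultures against 1310.3 and 1303 in tissue, a log2 rise of 0.86 (SE 0.17, edgeR adjusted p = 0.00204). Malat1 had 1152, 964, 2471 and 1335 CPM against 396 and 525, a rise of 1.68 (SE 0.38, edgeR adjusted p = 0.00389). All 5 markers of cluster 5 were called between cultures and tissue, 4 of them higher in cultures and Atf5 lower. Of all genes counted in the single cells and tested, 65.6% rose and 20.3% fell, so these calls do not set the markers apart.

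**Figure D5:**
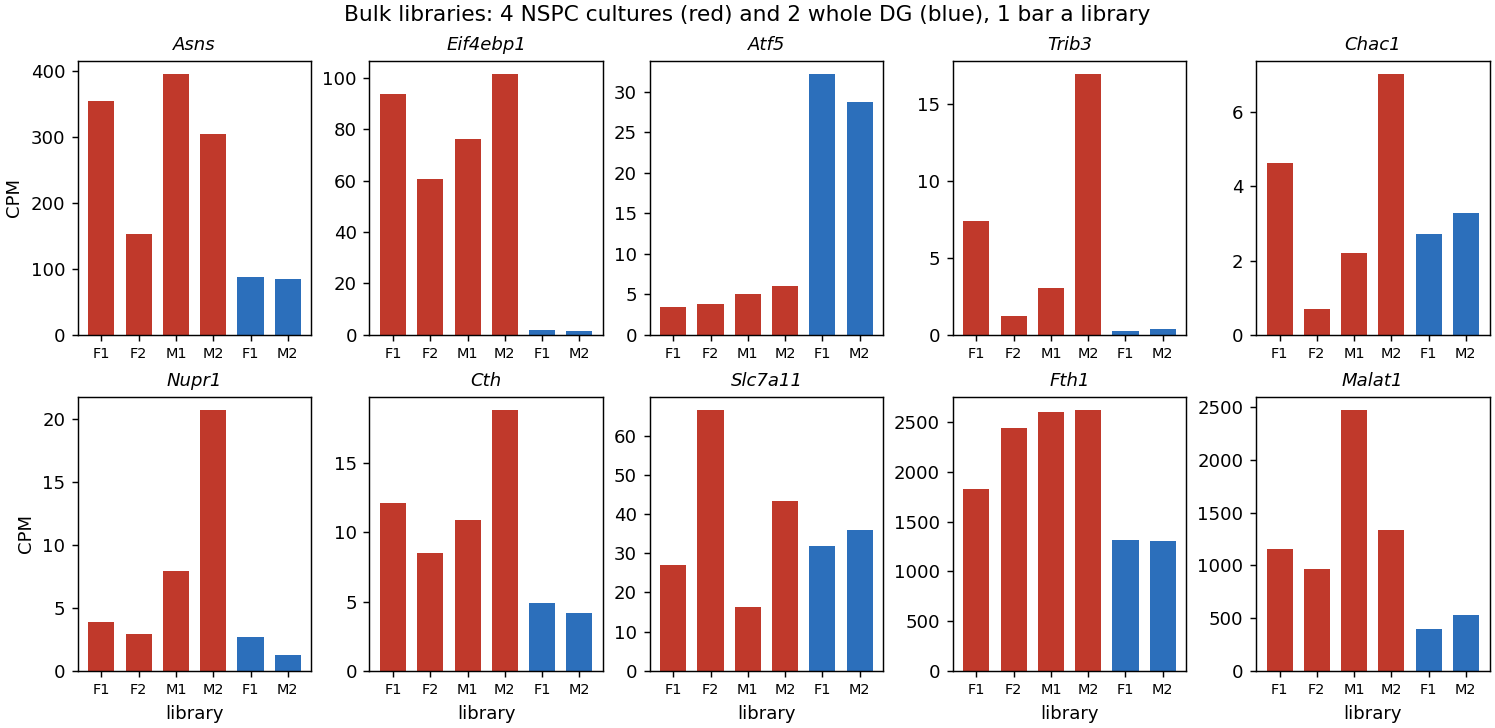
CPM of 10 genes in each bulk library, 4 cultures in red and 2 whole dentate gyri in blue, 1 bar per library with axes from 0. Trib3, Chac1, Nupr1 and Cth are highest in culture M2, Slc7a11 in culture F2, and Atf5 is lower in every culture than in tissue.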

How the data were processed

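The authors deposited 1 natural log value per gene and cell, ln(1 + UMIs per 10000), and put the cluster number at the front of the cell names. Cell Ranger 3.1.0 and Seurat 3.1.0 made these values per the submitters' processing notes, while the labels' protocol names versions 3.0.2 and 3.0.1. No source used here gives the cell filter or the treatment of doublets, and no doublet caller was run. Whole UMIs were recovered from the values (100% of entries within 0.01 of a whole number, 2001 to 8531 UMIs per cell) and summed by cluster to CPM (UMIs per 1000000).

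The bulk table held raw counts per gene as deposited by the authors, with 9917697 to 17351636 counts per library. CASAVA 1.8.2, HISAT2 2.0.6 and featureCounts stand in the submitters' processing notes, with the human build GRCh38, although the symbols are those of mouse genes. The bulk test was edgeR 4.0.16 under R 4.3.3 (quasi-likelihood, robust, TMM, default filter, Benjamini-Hochberg adjustment over 18088 genes). The labels describe separate cultures, so the p-values rest on the spread among 4 cultures and 2 animals. Of the 97 named genes found once in GENCODE M21, 25 overlap another gene on the same strand and 33 on the other strand.

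Named were the 5 markers, the 12 highest and 8 lowest genes against the other cells, the 5 highest and 5 lowest against cluster 0 (at least 100 CPM in the higher set), the 2 most abundant members of each of 29 lists, and all ATF4-list members. Any other gene was named after its values were seen. These members, lists and rules were chosen with earlier results of these data known. The alternatives were cells weighted equally or thinned, mitochondrial UMIs left out, cells left out by mitochondrial share or depth, other minimums and folds, and in bulk other scaling, no filter, DESeq2 1.42.0, a replicate block and each library left out. Both scripts were tested on simulated data, where edgeR recovered 100% of 200 genes changed 4-fold, with 5 false calls in 15340 genes. Apart from these 200 genes the simulated bulk groups shared the same means, unlike the real groups, where most tested genes were called. The simulation therefore does not check the scaling or the effect of kit in the real comparison.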

Additional observations from a re-analysis of the deposited data

How the results depend on the processing

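The counts of genes past the fold depended on the minimum level and the fold. Against the other cells, 145 genes were higher and 994 lower with a minimum of 10 CPM, 13 and 40 with a minimum of 200, and 9 and 109 with a fold of 2. Against cluster 0 these were 122 and 560, 12 and 20, and 13 and 21, and the share of higher genes among those past the fold was 26.7% at first, 37.5% with a minimum of 200 and 38.2% with a fold of 2. By construction a lower minimum counts more genes and a higher fold passes fewer. The other 20 counts, with cells weighted equally, thinned or left out, or without mitochondrial UMIs in the totals, stayed within 1.5 times. Named genes crossed the fold as follows. With cells thinned, Stc2 went from 1.35 to 1.63 against the other cells and from 1.46 to 2.19 against cluster 0, and Birc5 (0.601 to 0.762), Cenpf (0.626 to 0.850) and Hmmr (0.592 to 0.685) left it and Sox4 (0.701 to 0.655) passed it against cluster 0. With cells weighted equally, Phgdh rose to 1.513 and Eif2s3y went from 0.626 to 0.702 against the other cells. Against cluster 0, Top2a (0.668) and Mki67 (0.675) passed the fold with values of 0.655 to 0.665, Top2a with cells weighted equally and both without mitochondrial UMIs or without the deepest cells. Low depth limits genes such as Trib3 and Chac1 to few UMIs, and the 3 pooled cultures give no replicate of the cluster.

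In bulk, 5143 to 6418 genes were higher and 6672 to 7620 lower with 1 library left out. DESeq2 size factors moved the median of all genes by -0.10 (log2). With a replicate block by the shared names F1 and M2, 6084 were higher and 7428 lower. Same-named libraries deviated together only weakly (r of 0.042 and 0.054) in 2 pairs. The deviations of 2 tissue libraries from their mean mirror each other, so these values cannot settle whether the names mark a pairing. The main test used no pairing. The log2 differences that changed sign, none of them called, were those of Atf4 with the block (0.016), Chac1 without culture M2 (-0.25, and -0.25 to 0.63 over the libraries left out) and Atf3 without the F1 tissue (0.13, and -1.06 to 0.13 likewise). The cause was not tested.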

Other observations

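Among the genes that follow, Ctsd, Ptn and Igfbp2 were named by rule and the others after their values were seen. Lysosomal genes were among the 52 genes higher in cluster 5: Ctsd, an aspartic protease, stood at 346 CPM in cluster 5, 204 in the other cells and 262 in cluster 0, and Ctsl, a cysteine protease, at 166, 91.6 and 110.5. Cd63, a tetraspanin of late endosomes, was at 915, 534 and 608. Of 15 listed genes of autophagy and the lysosome 8 passed the minimum and 2 were 1.5-fold or more higher than in the other cells, with a median ratio of 1.28. Pck2, the mitochondrial form of phosphoenolpyruvate carboxykinase, was at 95.2 CPM in cluster 5 (86.4 to 105), 36.0 in the other cells and 27.0 in cluster 0. Slc7a3, a carrier of cationic amino acids, had 67 UMIs in cluster 5, a level of 14.7 CPM (11.4 to 18.6) against 2.01 in the other cells.

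Egr1, an immediate-early transcription factor that responds to growth factors, was lower in cluster 5, at 25.4 CPM (21.0 to 30.4) against 46.7 to 66.8 in the other 5 clusters. Of the secreted factors most abundant in these cultures, Ptn was at 2434 CPM in cluster 5 and 2809 in the other cells, and Igfbp2 at 1831 and 2146. None of the 10 counted glycolysis genes and none of the 23 counted genes of cholesterol and fatty acid synthesis was past the fold against the other cells, with medians of 0.914 and 0.956.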
